A study of Homo sapiens with 12 samples.

Results

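The DLK1-DIO3 microRNAs are cut from a long run of hairpins between the genes DLK1 and DIO3 on human chromosome 14, and their levels were followed in 2 gastric cancer cell lines treated with a histone deacetylase inhibitor. The members were taken by name, any arm, with earlier results of these data known. They come from a list of 48 microRNA numbers of the locus and not from a cutoff on their values. Of these numbers 44 had a row in the count table, as 85 mature names among 1906 annotated ones. miR-300, miR-337, miR-665 and miR-770 were not analysed here. Of the 85 names, 60 were listed with reads in 1 or more of the 12 libraries and 25 were listed in none. The counts allowed a test for 25 of the 60, among 608 microRNAs tested in all. The other 35 listed names lay under the filter on low counts.

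Small RNA was sequenced from 4 groups of 3 replicates. HGC-27-SAHA and AGS-SAHA were given 5 µM SAHA for 24 h, and HGC-27-DMSO and AGS-DMSO were given the solvent DMSO. HGC-27 and AGS are established human gastric cancer lines, HGC-27 from an undifferentiated carcinoma and AGS from an adenocarcinoma, and each stands for a single tumour. SAHA (vorinostat) blocks histone deacetylases, the enzymes that take acetyl groups off histones. Whether the numbered replicates came from separate cultures is not in the labels, so the p-values measure only the spread between these libraries, which may be technical. Total counts per library lay between 2665109 and 6525388. The library HGC-27-SAHA 2 stood apart from its replicates, as described below, and the results on the members in HGC-27 are given with and without it. The 10 epithelial markers were all listed in both lines. Their summed levels lay between 6751 and 7089 CPM in HGC-27-SAHA and between 1574 and 2793 CPM in HGC-27-DMSO. In AGS they lay between 5678 and 6929 CPM with SAHA and between 2926 and 8071 CPM with DMSO. Most of each sum was miR-192-5p, with 5582, 5659 and 5781 CPM in HGC-27-SAHA and 1734, 1269 and 1081 CPM in HGC-27-DMSO. The sums therefore do not stand for the list as a whole.

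At this locus DLK1, RTL1 and DIO3 are expressed from the chromosome inherited from the father, and the noncoding RNAs MEG3, MEG8 and MEG9 and the microRNAs from the chromosome inherited from the mother. Methylation of a control region between DLK1 and MEG3 sets which copy is active. The microRNAs are thought to come from long transcripts that hold many hairpins in a row, and they are best known from brain, placenta and embryonic tissue. A microRNA acts through its seed, bases 2 to 8, which pairs with messenger RNAs. Members of this locus have been described as silenced in several cancers, and miR-127 was an early case of a microRNA switched back on in bladder cancer cells by drugs that act on DNA methylation and on histone deacetylases.

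The mature sequences below show what was counted, with the seed in capitals. The first 4 are the most abundant tested members, and the other 5 were chosen after their values were seen, since the results below turn on them. All are RefSeq sequences on the plus strand of GRCh38.p14.
miR-381-3p: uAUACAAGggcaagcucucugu
miR-379-5p: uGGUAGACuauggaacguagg
miR-411-5p: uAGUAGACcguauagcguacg
miR-127-3p: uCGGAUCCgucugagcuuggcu
miR-654-3p: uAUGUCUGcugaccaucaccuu
miR-494-3p: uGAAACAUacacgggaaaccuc
miR-493-5p: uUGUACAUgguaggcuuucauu
miR-411-3p: uAUGUAACacgguccacuaacc
miR-379-3p: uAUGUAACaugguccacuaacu

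The 25 tested members carried 25 different seeds, so no tested member shared its full seed with another. The seeds of miR-379-5p and miR-411-5p differ only in their first base. Over the 84 members with a sequence there were 75 seeds, 8 of them shared by 2 or more members. miR-411-3p and miR-379-3p above share theirs, although miR-379-3p was too low to be tested. The seed of miR-381-3p is also that of miR-300, which was not analysed here.

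The hairpins lie in a stretch of 197.7 kb, from chr14:100869060 to chr14:101066801 (GRCh38.p14, 41 of 45 hairpins matched), all on the plus strand. At the upstream end, next to MEG3, lies miR-493. The hairpins of miR-431, miR-433, miR-127, miR-432 and miR-136 lie antisense to an exon of RTL1, a retrotransposon-derived gene on the minus strand. miR-370 lies in an intron of MEG8. The remaining members, from miR-379 to miR-656, form a dense block in introns of MEG8, MIR381HG and MEG9 and in the stretches between them (GENCODE 29). Of the mature forms shown above, miR-127-3p lies at chr14:100883035-100883056, miR-379-5p at chr14:101022071-101022091, miR-411-5p at chr14:101023340-101023360 and miR-381-3p at chr14:101045968-101045989. miR-410-3p lies in an exon of MEG9, and miR-654-3p in none of the annotated genes. The test could be run for 1 of 2 names beside MEG3, 5 of 10 antisense to RTL1, 1 of 2 at miR-370 and 18 of 71 in the block from miR-379 to miR-656.

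Summed over its 85 names, the cluster was higher in every SAHA library than in every DMSO library of the same line. The summed level was 143.1, 3855 and 205.1 CPM in the HGC-27-SAHA libraries, against 60.4, 56.8 and 35.5 CPM in the HGC-27-DMSO libraries. It was 367.1, 638.5 and 350.7 CPM in the AGS-SAHA libraries, against 52.6, 139.2 and 65.1 CPM in the AGS-DMSO libraries. CPM here means counts scaled to a common library total after TMM, which corrects for differences in library makeup. In both lines the groups did not overlap, but a single library, HGC-27-SAHA 2, set the mean of its group.

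The ratio of the group means was 27.5 in HGC-27 and 3.42 without HGC-27-SAHA 2. In AGS it was 5.28, and 4.19 without AGS-SAHA 2, the highest of that group. Even at its highest the cluster was a small part of the microRNAs, with 0.405% of the annotated counts in HGC-27-SAHA 2 and 0.0362% to 0.0747% in AGS-SAHA, against 0.0052% to 0.013% in AGS-DMSO. In bulk libraries, fewer cells expressing a microRNA and less of it per cell cannot be told apart.

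**Figure D1:**
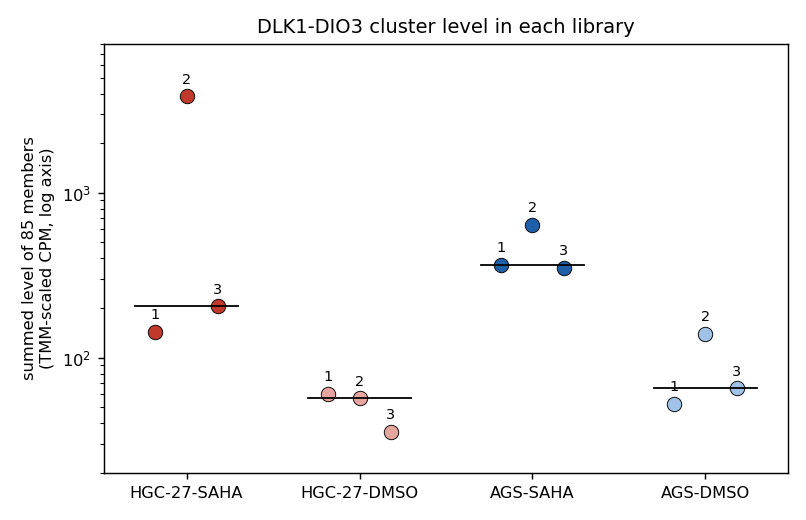
Summed level of the 85 DLK1-DIO3 microRNAs in each library, in TMM-scaled CPM on a log axis; numbers are replicate numbers and bars are group medians. HGC-27-SAHA 2 stood at 3855 CPM, and the other SAHA libraries lay between 143.1 and 638.5 CPM, all above the DMSO libraries at 35.5 to 139.2 CPM.

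More members were seen with SAHA as well. The libraries listed 31, 53 and 36 members in HGC-27-SAHA and 22, 22 and 19 in HGC-27-DMSO. They listed 40, 48 and 39 members in AGS-SAHA and 21, 24 and 17 in AGS-DMSO. Of the 60 listed members, 23 were listed only with SAHA and 1, miR-541-5p, only with DMSO. The same counts over all 1906 annotated names are not given here. The numbers listed therefore describe the members and do not set them apart from other microRNAs. HGC-27-SAHA 2 held the highest count of 45 of the 60 and was the only library to list 5 of them.

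The most abundant member was miR-381-3p, which made up 22.3% to 49.7% of the cluster's counts in every library. It stood at 49.4, 1793 and 56.2 CPM in HGC-27-SAHA, against 13.5, 17.8 and 7.91 CPM in HGC-27-DMSO. In AGS it stood at 110.4, 150.5 and 174.2 CPM with SAHA, against 20.9, 50.6 and 18.7 CPM with DMSO. All SAHA libraries lay above all DMSO libraries of their line. Without it the sum was higher with SAHA as well: the remainder was 93.8, 2062 and 148.9 CPM in HGC-27-SAHA, against 27.6 to 46.9 CPM in HGC-27-DMSO.

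**Figure D2:**
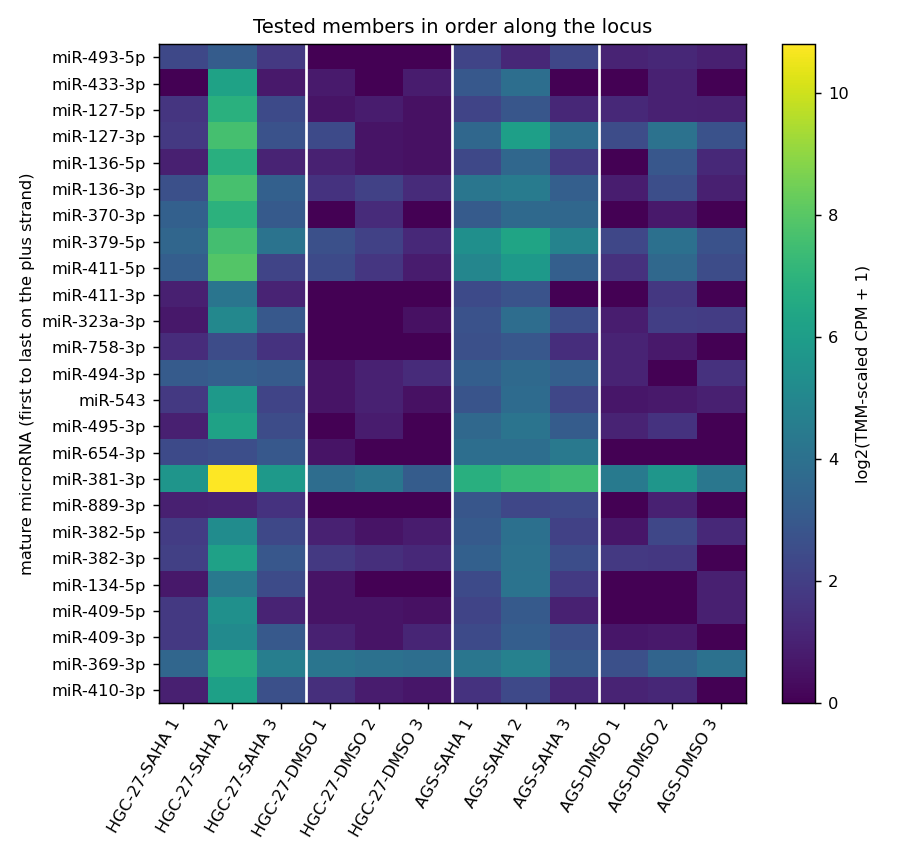
Level of the 25 tested members in each of the 12 libraries, as log2(TMM-scaled CPM + 1), ordered along the locus; white lines part the groups. The column of HGC-27-SAHA 2 is bright for most members, with miR-654-3p, miR-889-3p and miR-494-3p close to the replicates, and the AGS-SAHA columns are brighter than AGS-DMSO over most of the locus.

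In HGC-27, SAHA raised members in every segment of the locus. Of the 25 tested members, 23 were called higher (edgeR's quasi-likelihood test, adjusted p under 0.05) and 0 lower, where 21.7% of all microRNAs tested were called higher and 19.1% lower. The median log2 fold change of the members was 5.26, against 0.08 over all tested. The 3 SAHA libraries lay above the 3 DMSO libraries for 19 of 25 members and below them for 0, where 30.4% of all tested lay above and 27.5% below. Members near 0 under DMSO passed the filter on low counts through SAHA libraries, of HGC-27 or of AGS. Their higher level with SAHA was partly set by that filter, so these counts describe the tested members and not all 85.

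HGC-27-SAHA 2 set the size of that response and many of its calls. Without it 13 of 25 members were called higher and 0 lower, where 17.1% of all tested were called higher and 11.3% lower, and the median log2 fold change of the members was 2.33, against 0.12 over all. The 13 were all among the 23. The libraries did not overlap for 19 members higher and 0 lower, where this held for 35.4% of all tested higher and 28.0% lower. With HGC-27-SAHA 2 kept, 15 members were called higher without HGC-27-DMSO 2 and 14 without HGC-27-DMSO 3. With it left out, 5 were called without HGC-27-SAHA 3 and 8 without HGC-27-DMSO 3. In HGC-27 with all libraries and in AGS no member had a negative log2 fold change, and DESeq2 called 0 lower in any of these fits.

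Of the members antisense to RTL1, miR-127-3p, which is known to target BCL6 and, in mouse, RTL1 itself, had 2.5, 194.9 and 5.67 CPM in HGC-27-SAHA, against 4.42, 0.502 and 0.386 CPM in HGC-27-DMSO. HGC-27-SAHA 2 was far above the rest, and HGC-27-SAHA 1 lay under HGC-27-DMSO 1. The log2 fold change was 5.26 ± 1.68 (SE, adjusted p = 0.0279), and 1.32 ± 1.13 (adjusted p = 0.416) without HGC-27-SAHA 2. Its other arm, miR-127-5p, had 2.19, 114.5 and 4.31 CPM in HGC-27-SAHA, against 0.491, 0.753 and 0.386 CPM in HGC-27-DMSO. The groups did not overlap, and this arm was called higher with HGC-27-SAHA 2 (6.14 ± 1.46, adjusted p = 0.00709) and without it (2.61 ± 0.72, adjusted p = 0.0201).

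miR-136-3p, from the next hairpin, had 5.31, 199.2 and 9.06 CPM in HGC-27-SAHA, against 1.96, 3.27 and 1.54 CPM in HGC-27-DMSO. It was called higher with all libraries (4.97 ± 1.32, adjusted p = 0.0124) but not without HGC-27-SAHA 2 (1.75 ± 0.64, adjusted p = 0.0629). miR-136-5p had 0.938, 112.3 and 1.13 CPM in HGC-27-SAHA, against 0.982, 0.502 and 0.386 CPM in HGC-27-DMSO. Outside HGC-27-SAHA 2 this arm stayed near 1 CPM in both groups, and its call (5.87 ± 1.90, adjusted p = 0.0293) was lost without that library (0.79 ± 1.35, adjusted p = 0.71). miR-433-3p had 0, 73.9 and 0.68 CPM in HGC-27-SAHA, against 0.737, 0 and 0.771 CPM in HGC-27-DMSO, and was not called with HGC-27-SAHA 2 (5.47 ± 2.09, adjusted p = 0.0581) or without it (-0.36 ± 1.96, adjusted p = 0.918). So of the 5 tested members antisense to RTL1, 4 were called higher with all libraries and 1, miR-127-5p, without HGC-27-SAHA 2.

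At the upstream end, miR-493-5p was listed in no HGC-27-DMSO library and had 4.06, 7.90 and 2.49 CPM in HGC-27-SAHA. Against a floor of 3 counts in each DMSO library its mean was at least 6.99-fold higher with SAHA, and at least 4.75-fold without HGC-27-SAHA 2. It was called in both fits (adjusted p = 0.000713 and, without that library, 0.00198) and is named here after its values were seen. miR-370-3p, from the hairpin in the intron of MEG8, had 9.06, 122 and 7.25 CPM in HGC-27-SAHA, against 0, 1.51 and 0 CPM in HGC-27-DMSO. The groups were well apart in every library, and the rise was called with HGC-27-SAHA 2 (6.5 ± 1.45, adjusted p = 0.00495) and without it (4.09 ± 0.90, adjusted p = 0.00619).

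In the block from miR-379 to miR-656, 17 of 18 tested members were called higher in HGC-27 and 10 of 18 without HGC-27-SAHA 2. This block is known in rat neurons to be switched on by neuronal activity as a unit. miR-381-3p, whose levels are given above, was called in both fits, at 5.60 ± 1.32 (adjusted p = 0.00675) and, without HGC-27-SAHA 2, at 2.08 ± 0.41 (adjusted p = 0.00337). miR-379-5p, from the hairpin that opens the block, had 10.9, 188.8 and 16.5 CPM in HGC-27-SAHA, against 5.16, 3.27 and 1.35 CPM in HGC-27-DMSO. It too was called in both fits, at 4.47 ± 1.12 (adjusted p = 0.0091) and at 2.16 ± 0.65 (adjusted p = 0.0288).

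miR-411-5p, from the hairpin next to miR-379, had 8.44, 237.2 and 3.63 CPM in HGC-27-SAHA, against 4.42, 2.26 and 0.771 CPM in HGC-27-DMSO. Here HGC-27-SAHA 3 fell inside the range of the DMSO libraries, and the call (5.07 ± 1.53, adjusted p = 0.0222) was lost without HGC-27-SAHA 2 (1.33 ± 0.93, adjusted p = 0.315). miR-411-3p had 0.938, 17.2 and 1.13 CPM in HGC-27-SAHA and was listed in no HGC-27-DMSO library, so that its mean was at least 9.33-fold higher with SAHA, and at least 1.5-fold without HGC-27-SAHA 2. That arm was called only with HGC-27-SAHA 2 included (adjusted p = 0.0394, and 0.173 without it).

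miR-495-3p and miR-323a-3p, also of this block, were close to nothing under DMSO. miR-495-3p had 0.938, 74.6 and 4.76 CPM in HGC-27-SAHA, against 0, 0.753 and 0 CPM in HGC-27-DMSO. With 232 counts in the SAHA libraries and 3 in the DMSO libraries, the ratio was 98.5 (exact 95% interval 33.3 to 481), and it was 13.9 (4.23 to 72.2) without HGC-27-SAHA 2. Both fits called it (adjusted p = 0.0102 and 0.0373). miR-323a-3p had 0.625, 32.3 and 6.80 CPM in HGC-27-SAHA, against 0, 0 and 0.386 CPM in HGC-27-DMSO. It was called in both fits as well (adjusted p = 0.00595 and 0.0181), with a ratio of 77.7 (21 to 648), and of 27.8 (7.1 to 240) without HGC-27-SAHA 2. These intervals cover counting error only.

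The arms of miR-382 and miR-409 lie at the downstream end. miR-382-5p had 2.81, 37.3 and 4.08 CPM in HGC-27-SAHA, against 0.982, 0.502 and 0.771 CPM in HGC-27-DMSO. miR-382-3p had 3.13, 71.1 and 6.57 CPM in HGC-27-SAHA, against 2.46, 1.76 and 1.35 CPM in HGC-27-DMSO. Both arms were called with all libraries (adjusted p = 0.0125 and 0.0201) and neither without HGC-27-SAHA 2 (adjusted p = 0.0685 and 0.148), although their libraries did not overlap. miR-409-3p had 2.5, 34.8 and 7.02 CPM in HGC-27-SAHA, against 0.982, 0.502 and 1.16 CPM in HGC-27-DMSO, and kept its call without that library (2.45 ± 0.64, adjusted p = 0.0156). miR-409-5p had 2.5, 42.3 and 1.13 CPM in HGC-27-SAHA, against 0.491, 0.502 and 0.386 CPM in HGC-27-DMSO, and did not (1.93 ± 1.06, adjusted p = 0.202).

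A few members did not follow HGC-27-SAHA 2. They are named here after their values were seen. miR-494-3p had 7.5, 8.61 and 7.48 CPM in HGC-27-SAHA, against 0.491, 1.01 and 1.54 CPM in HGC-27-DMSO. miR-654-3p had 4.38, 5.02 and 6.80 CPM in HGC-27-SAHA, against 0.491, 0 and 0 CPM in HGC-27-DMSO. The 3 SAHA libraries of each were nearly level, and both were called whether HGC-27-SAHA 2 was in the fit (2.88 ± 0.61, adjusted p = 0.00371, and 4.85 ± 0.75, adjusted p = 0.00107) or not (2.86 ± 0.61, adjusted p = 0.00527, and 4.97 ± 0.76, adjusted p = 0.00154). miR-889-3p had 0.938, 1.08 and 2.04 CPM in HGC-27-SAHA and was listed in no HGC-27-DMSO library, which puts its mean at least 1.96-fold higher.

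miR-369-3p, known for acting on a messenger RNA of the TNF gene, had 10.9, 102.6 and 23.3 CPM in HGC-27-SAHA, against 17.4, 15.6 and 13.9 CPM in HGC-27-DMSO. It was the most abundant tested member in HGC-27-DMSO 1 and HGC-27-DMSO 3 and the next after miR-381-3p in HGC-27-DMSO 2, HGC-27-SAHA 1 lay under all 3 of them, and it was called neither with HGC-27-SAHA 2 (1.54 ± 0.73, adjusted p = 0.117) nor without it (0.21 ± 0.53, adjusted p = 0.813).

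**Figure D3:**
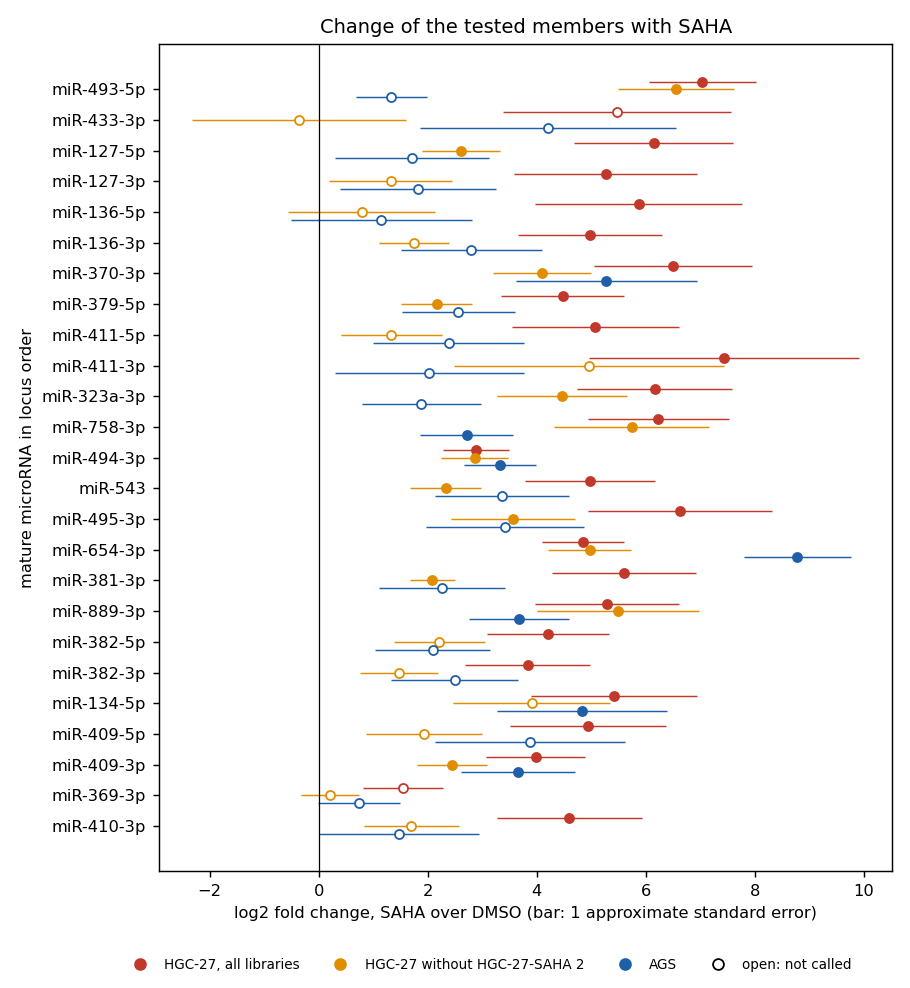
Log2 fold change of the 25 tested members, SAHA over DMSO, in HGC-27 with all libraries, in HGC-27 without HGC-27-SAHA 2 and in AGS, in locus order; bars are 1 approximate SE and filled points are called. All points lie above 0 except miR-433-3p in HGC-27 without HGC-27-SAHA 2 (-0.36); points of members at 0 under DMSO depend on the small count that edgeR adds.

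In AGS the higher level was spread more evenly over the SAHA libraries. Of the 25 tested members, 7 were called higher and 0 lower, where 15.0% of all tested were called higher and 11.5% lower. The median log2 fold change was 2.56, against 0.08 over all tested, and all 25 values were above 0. The 3 SAHA libraries lay above the 3 DMSO libraries for 15 of 25 members and below them for 0, where 22.7% of all tested lay above and 16.0% below. Members close to 0 under DMSO could pass the filter on low counts only through SAHA libraries, of either line. For such members a higher level with SAHA was partly set by the filter. These counts and signs therefore describe the tested members and not the whole list. The 7 were miR-134-5p, miR-370-3p, miR-409-3p, miR-494-3p, miR-654-3p, miR-758-3p and miR-889-3p.

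All 7 were also called in HGC-27 (7 of 7, and 7 of the 23 called there, 30.4%), and all but miR-134-5p without HGC-27-SAHA 2. The count in AGS moved with single libraries: edgeR called 3 members without AGS-SAHA 2, 3 without AGS-DMSO 2, 2 without AGS-DMSO 1, 2 without AGS-SAHA 1 and 2 without AGS-DMSO 3. miR-494-3p and miR-654-3p were called whichever of the 6 AGS libraries was left out.

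miR-654-3p had 14.1, 14.2 and 19.9 CPM in AGS-SAHA and was listed in no AGS-DMSO library. Against a floor of 3 counts per library its mean was at least 14.8-fold higher with SAHA (adjusted p = 0.000349). miR-494-3p had 8.43, 11.9 and 8.79 CPM in AGS-SAHA, against 1.11, 0 and 1.87 CPM in AGS-DMSO (log2 fold change 3.32 ± 0.66, adjusted p = 0.00401). These members thus stood apart from DMSO in every SAHA library of both lines, AGS-SAHA 2 and HGC-27-SAHA 2 included. miR-370-3p had 7.63, 11.9 and 11.1 CPM in AGS-SAHA, against 0, 0.666 and 0 CPM in AGS-DMSO, with a count ratio of 45.3 (exact 95% interval 12.2 to 380, adjusted p = 0.0378).

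The other calls in AGS were at lower levels. miR-889-3p had 6.43, 3.86 and 4.23 CPM in AGS-SAHA, against 0, 0.999 and 0 CPM in AGS-DMSO, a ratio of 13.8 (4.39 to 69.4, adjusted p = 0.018). miR-134-5p, which in rat neurons limits the size of dendritic spines, had 4.42, 16.4 and 2.61 CPM in AGS-SAHA, against 0, 0 and 0.936 CPM in AGS-DMSO (ratio 35.2, interval 9.4 to 297, adjusted p = 0.0426). Here AGS-SAHA 2 held most of the counts. miR-409-3p had 4.42, 8.36 and 5.21 CPM in AGS-SAHA, against 0.557, 0.666 and 0 CPM in AGS-DMSO (3.65 ± 1.05, adjusted p = 0.0266), and its 5p arm 3.61, 7.39 and 0.977 CPM, against 0, 0 and 0.936 CPM (adjusted p = 0.138). miR-758-3p had 5.22, 6.75 and 1.63 CPM in AGS-SAHA, against 1.11, 0.666 and 0 CPM in AGS-DMSO (2.71 ± 0.86, adjusted p = 0.0472).

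Several of the most abundant members had AGS groups that did not overlap and still missed the threshold. miR-381-3p (levels above) had a log2 fold change of 2.26 ± 1.15 (adjusted p = 0.188). miR-379-5p had 40.6, 77.5 and 27.4 CPM in AGS-SAHA, against 3.90, 15.0 and 5.62 CPM in AGS-DMSO (2.56 ± 1.03, adjusted p = 0.1). miR-136-3p had 18.1, 21.5 and 8.79 CPM in AGS-SAHA, against 0.835, 5.00 and 0.936 CPM in AGS-DMSO (2.80 ± 1.29, adjusted p = 0.148). In this fit the 4 groups share 1 estimate of the spread for each microRNA, so the scatter of HGC-27-SAHA 2 enters the AGS comparison of these members too. With HGC-27-SAHA 2 and AGS-SAHA 2 both left out, a setting chosen after seeing the data, 10 members were called higher in AGS. The share of all tested called in that setting is not given here. It drops a library of each line and changes the filter, so the part of HGC-27-SAHA 2 in the AGS calls was not tested.

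Other abundant members overlapped between the AGS groups. miR-127-3p had 11.2, 68.5 and 13.7 CPM in AGS-SAHA, against 4.73, 16.0 and 5.62 CPM in AGS-DMSO (1.82 ± 1.43, adjusted p = 0.4). miR-411-5p had 30.1, 56.3 and 8.79 CPM in AGS-SAHA, against 1.95, 11.7 and 4.68 CPM in AGS-DMSO (2.38 ± 1.39, adjusted p = 0.252). For both, AGS-DMSO 2 was the highest of the DMSO libraries and lay above the lowest SAHA library. miR-369-3p had 18.1, 26.0 and 7.16 CPM in AGS-SAHA, against 5.29, 10.3 and 15.5 CPM in AGS-DMSO (0.74 ± 0.75, adjusted p = 0.502), the smallest log2 fold change of the tested members there. Of the 5 members antisense to RTL1, edgeR called 0 in AGS, also at an unadjusted p under 0.05, and DESeq2 called 0, giving no p for 4 of them. In the block from miR-379 to miR-656, 6 of 18 were called.

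The remaining arm partners and miR-136-5p were not called in AGS. miR-136-5p had 4.02, 11.3 and 2.61 CPM in AGS-SAHA, against 0, 6.66 and 1.40 CPM in AGS-DMSO. miR-127-5p had 3.61, 6.43 and 1.30 CPM in AGS-SAHA, against 1.39, 0.999 and 0.936 CPM in AGS-DMSO. The SAHA and DMSO libraries of both overlapped, and neither was called (adjusted p = 0.655 and 0.425). miR-433-3p had 6.83, 14.2 and 0 CPM in AGS-SAHA, against 0, 0.999 and 0 CPM in AGS-DMSO, and was not called either (adjusted p = 0.232). miR-382-3p had 8.84, 15.75 and 4.88 CPM in AGS-SAHA, against 2.51, 2.33 and 0 CPM in AGS-DMSO, without overlap (adjusted p = 0.151). miR-382-5p had 7.23, 15.1 and 3.26 CPM, against 0.557, 4.00 and 1.40 CPM, with overlap (adjusted p = 0.184). miR-411-3p had 4.42, 5.79 and 0 CPM, against 0, 2.33 and 0 CPM (adjusted p = 0.441).

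Whether the lines responded differently was tested as the difference of their log2 fold changes, AGS minus HGC-27. No member was called in either direction, where 0.987% of all tested were called higher in AGS and 0.822% lower. With edgeR 3 members had an unadjusted p under 0.05, and DESeq2 called 0, with 2 under 0.05, and gave no adjusted p for 14. The median difference of the members was -2.12 with all libraries, and 0.40 without HGC-27-SAHA 2, again with 0 members called (0.311% and 0.932% of all tested), 1 under an unadjusted 0.05 with edgeR and 1 with DESeq2. The sign of the median thus turned with that library. The member nearest to the threshold was miR-493-5p (-5.70 ± 1.27, adjusted p = 0.0664, and -5.30 ± 1.33, adjusted p = 0.099, without HGC-27-SAHA 2), which had 3.61, 1.29 and 3.91 CPM in AGS-SAHA and 1.11, 1.33 and 0.936 CPM in AGS-DMSO. No HGC-27-DMSO library listed miR-493-5p, so the size of this difference depends on the small count that edgeR adds. Against the floor of 3 counts its rise in HGC-27 was only bounded, at 6.99-fold or more, and at 4.75-fold or more without HGC-27-SAHA 2. For miR-381-3p the difference was -3.34 ± 1.61 with all libraries and 0.10 ± 0.57 without HGC-27-SAHA 2 (adjusted p = 0.306 and 0.971).

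Under DMSO the cluster was low in both lines, with a mean summed level of 85.6 ± 46.8 CPM in AGS-DMSO and 50.9 ± 13.5 CPM in HGC-27-DMSO (SD, n = 3 each). Of the 25 tested members, 2 were called higher in AGS and 0 lower, where 24.5% of all tested were called higher and 20.1% lower, so the members' share was under the background. The AGS-DMSO libraries lay above the HGC-27-DMSO libraries for 5 of 25 members and below for 0, where 28.8% of all tested lay above and 26.5% below. The SAHA and baseline comparisons share the DMSO libraries. miR-493-5p was called (adjusted p = 0.00574), at least 1.64-fold higher in AGS-DMSO, where all 3 libraries listed it and no HGC-27-DMSO library did. The other call, miR-758-3p (adjusted p = 0.048), rested on 6 counts in AGS-DMSO and 0 in HGC-27-DMSO, both within the floor, and was lost on leaving out any DMSO library but AGS-DMSO 3, so that 1 call was left. With edgeR 3 members had an unadjusted p under 0.05, 0 of them lower. DESeq2 called 3 members, 0 of them lower, and gave no p for 6.

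Each hairpin can give a 5p and a 3p arm, and arm shares do not depend on how libraries are scaled. They are given for libraries with at least 20 counts of both arms together, with Wilson 95% intervals for counting error. Some hairpins gave mostly the same arm in every such library. miR-381 gave no 5p count in any such library, with 0 of 4996 in HGC-27-SAHA 2, while the 5p arm of miR-379 made up 80.8% to 100% and that of miR-411 76.2% to 100%. Their shares still varied beyond counting error: miR-411 had 93.2% 5p (91.1 to 94.9) in HGC-27-SAHA 2 and 76.2% (54.9 to 89.4) in HGC-27-SAHA 3, and the lowest share of miR-379 was in HGC-27-DMSO 1, with an interval of 62.1% to 91.5% that did not overlap the 94.0% to 97.3% of HGC-27-SAHA 2. miR-382 was mixed, with 34.4% to 49.0% 5p.

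Other hairpins differed more between libraries. The 5p arm of miR-127 made up 37.0% (33.8 to 40.3) in HGC-27-SAHA 2 and 43.2% (29.7 to 57.8) in HGC-27-SAHA 3. In AGS it made up 8.58% (5.63 to 12.9) in AGS-SAHA 2 and 8.70% (3.43 to 20.3) in AGS-SAHA 3, but 24.3% (13.4 to 40.1) in AGS-SAHA 1. These intervals for HGC-27-SAHA 2 and AGS-SAHA 2, the deepest for this hairpin, did not overlap. The 5p arm of miR-369 made up 25.1% (21.0 to 29.7) in HGC-27-SAHA 2, and 0% of 103 counts in HGC-27-SAHA 3 and of 71, 62 and 72 counts in HGC-27-DMSO. A count of 0 of 103 allows up to 3.6% by the same interval.

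miR-410 showed the reverse, with 1.53% 5p (0.522 to 4.4) in HGC-27-SAHA 2 and 23.3% (11.8 to 40.9) in HGC-27-SAHA 3. For miR-409 the 5p arm made up 54.9% (48.2 to 61.4) in HGC-27-SAHA 2 and 13.9% (6.08 to 28.7) in HGC-27-SAHA 3. miR-136 had 36.1% 5p (32.9 to 39.3) in HGC-27-SAHA 2 and 11.1% (4.84 to 23.5) in HGC-27-SAHA 3, and AGS-DMSO 2 had 57.1% (40.9 to 72.0). The intervals of HGC-27-SAHA 2 and HGC-27-SAHA 3 did not overlap for miR-369, miR-409, miR-410, miR-136 and miR-411. For these hairpins the libraries differed beyond counting error in the arms listed, and not in level alone. The intervals overlapped for the other hairpins with at least 20 counts in both libraries, among them miR-127, miR-379, miR-382, miR-370 and miR-493. Since the table lists no count under 2, an arm given as 0 may have had a read.

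**Figure D4:**
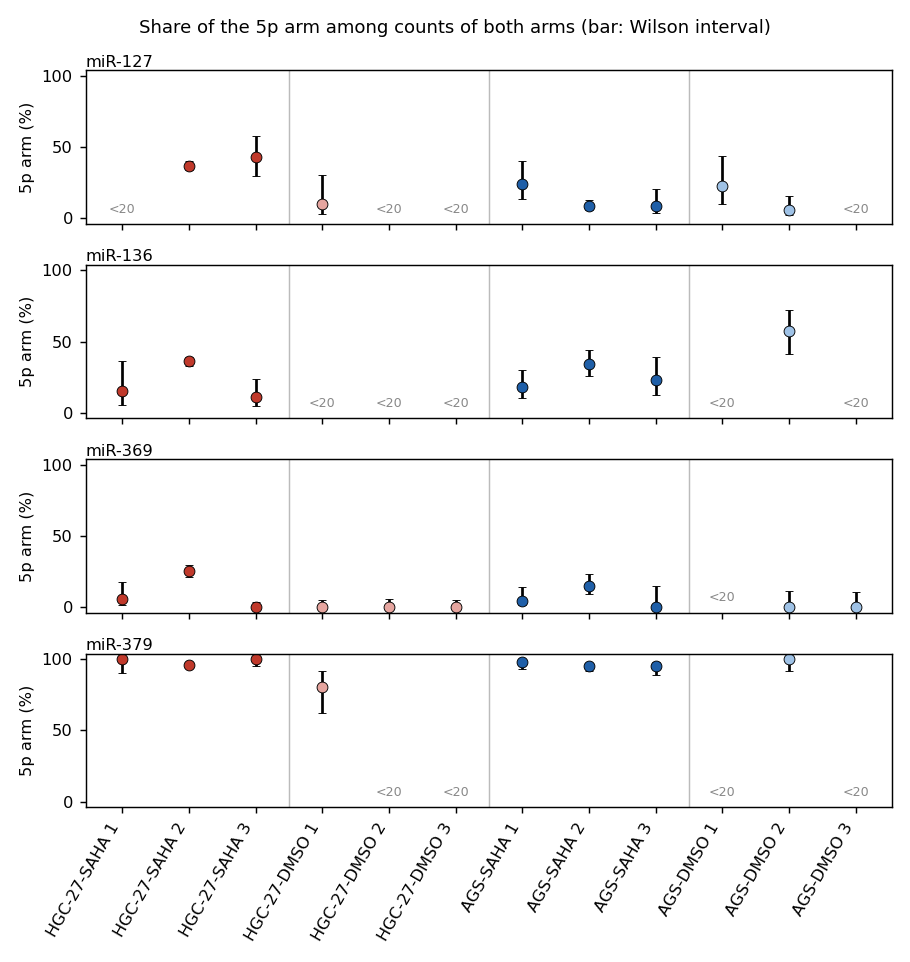
Share of the 5p arm among the counts of both arms of 4 hairpins in each library, in percent, with Wilson 95% intervals; libraries with fewer than 20 counts of a hairpin are marked. miR-369 gave 25.1% 5p in HGC-27-SAHA 2 and at most 14.7% elsewhere, miR-127 gave more 5p in HGC-27-SAHA 2 (37.0%) than in AGS-SAHA 2 (8.58%), and miR-379 gave mostly 5p in every library drawn.

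HGC-27-SAHA 2 differed from HGC-27-SAHA 1 and HGC-27-SAHA 3 well beyond this locus. Of the 25 tested members, 23 were higher in it than in both replicates, 20 of them by 5-fold or more over the replicates' mean, with a median ratio of 15.0 and a range of 0.723 to 217. Over all 608 microRNAs tested, 44 (7.24%) reached 5-fold, and the median ratio was 0.934. The share of all tested that was higher in HGC-27-SAHA 2 than in both replicates is not given, here or for the marker lists below. miR-433-3p and miR-136-5p had the highest ratios, 217 and 108, and miR-654-3p, miR-889-3p and miR-494-3p the lowest, 0.899, 0.723 and 1.15. Across the 25 members the order of levels in HGC-27-SAHA 2 had a Spearman correlation of 0.41 with HGC-27-SAHA 1 and 0.36 with HGC-27-SAHA 3, against 0.65 between those replicates. With HGC-27-DMSO 1, 2 and 3 the correlation of HGC-27-SAHA 2 was 0.67, 0.75 and 0.51, and with the AGS libraries it was 0.4 to 0.66. HGC-27-SAHA 1 and HGC-27-SAHA 3 had 0.45 to 0.73 with the HGC-27-DMSO libraries. These values describe members that share a library and its depth.

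Markers of neurons moved with the cluster in that library. All 15 of the list were higher in HGC-27-SAHA 2 than in both replicates, with a median ratio of 11, and their summed level was 10630 CPM there, 3135 and 3060 CPM in HGC-27-SAHA 1 and HGC-27-SAHA 3 and 1912 to 2020 CPM in HGC-27-DMSO. miR-9-5p, a microRNA of neural progenitors, had 72.8, 2658 and 236.3 CPM in HGC-27-SAHA, against 33.9, 57.8 and 14.5 CPM in HGC-27-DMSO. miR-124-3p, the defining microRNA of neurons, named after its values were seen, had 1.25, 180.5 and 8.16 CPM in HGC-27-SAHA, against 0, 0.753 and 0 CPM in HGC-27-DMSO. Of the other abundant markers, miR-218-5p had 202.8, 1214 and 182.4 CPM, miR-128-3p 2331, 5317 and 2151 CPM and miR-132-3p 430.3, 525 and 353 CPM in HGC-27-SAHA. So the high library held the highest level of every abundant neuron marker, and its lead ran from small (miR-132-3p) to very large (miR-124-3p).

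Of the 13 tested neuron markers, 10 were called higher in HGC-27 and 6 without HGC-27-SAHA 2, where 21.7% and 17.1% of all tested were. In AGS 2 of 13 were, a share near the 15.0% of all tested. In AGS the summed level of the list was 2470 to 2844 CPM in AGS-SAHA and 1767 to 2482 CPM in AGS-DMSO, and miR-153-3p was at 0 in every AGS library. In HGC-27-SAHA without replicate 2, miR-153-3p and miR-383-5p were at 0, and under DMSO miR-137, miR-138-5p and miR-153-3p were. In AGS-SAHA 2, 21 of 25 tested members and 11 of 15 neuron markers were higher than in both replicates, with median ratios of 2.3 and 2.02, where the median over all tested was 0.994. The share of all tested that was higher than in both replicates is not given for AGS-SAHA 2 either. The part of these markers in the level of the cluster was not tested.

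Other lists moved less uniformly. In HGC-27-SAHA 2, 7 of 7 blood markers (median ratio 3.26) and 5 of 7 mesenchymal markers (5.76) were higher than in both replicates, against 1 of 5 muscle and liver markers, 2 of 10 epithelial markers (0.973) and 0 of 8 markers of stem cells and placenta. With SAHA, 1 of 5 tested blood markers and 2 of 6 mesenchymal markers were called higher in each line and in HGC-27 without HGC-27-SAHA 2. Epithelial markers were called higher for 2 of 10 in HGC-27 and 0 of 10 in AGS, muscle and liver markers for 0 of 4 in HGC-27 and 1 of 4 in AGS, and the HGC-27 counts of both were the same without HGC-27-SAHA 2. In lists this short such counts cannot be told from the shares of all tested (21.7% in HGC-27, 17.1% without HGC-27-SAHA 2 and 15.0% in AGS). Of the stem cell and placenta markers 2 were tested, with 1 higher and 1 lower in HGC-27 and 1 higher in AGS. Without HGC-27-SAHA 2, 4 were tested, with 1 higher, and the lower call, miR-519a-3p (adjusted p = 0.015), was lost (adjusted p = 0.0529). Single DMSO libraries stood apart in some lists as well. The muscle and liver sum was 1157, 52.0 and 37.2 CPM in HGC-27-DMSO, with miR-1-3p at 1035, 6.78 and 4.82 CPM. The mesenchymal sum was 2843, 5221 and 2316 CPM in AGS-DMSO, with miR-143-3p at 988, 3438 and 493.4 CPM. The neuron sum differed less there, at 1767, 2482 and 1844 CPM. Both microRNAs were named after their values were seen. The part of these lists in the level of the cluster was not tested.

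**Figure D5:**
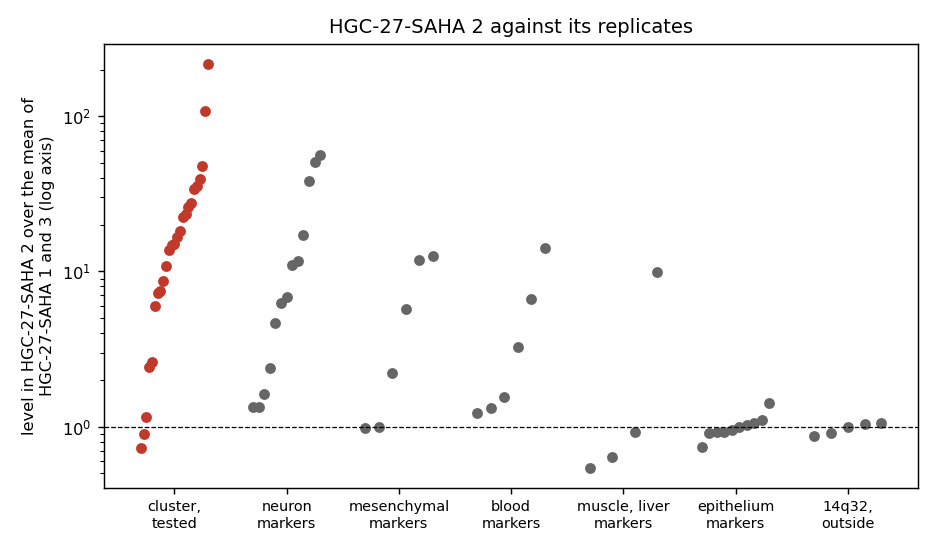
Level in HGC-27-SAHA 2 over the mean of HGC-27-SAHA 1 and HGC-27-SAHA 3 for each tested member, each marker of 5 lists and each microRNA elsewhere in band 14q32, on a log axis with the dashed line at equal levels; microRNAs at 0 in the library or in both replicates cannot be drawn. The members reach a ratio of 217 with a median of 15.0, the neuron markers have a median of 11, and the epithelial markers lie near equal levels (median 0.973).

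Neighbouring microRNAs that are no members were looked at beside the cluster. miR-1247, whose hairpin lies next to DIO3 at the far end of the locus, moved the other way in HGC-27. Its 3p arm had 24.4, 21.9 and 28.3 CPM in HGC-27-SAHA, against 86.2, 63.0 and 66.5 CPM in HGC-27-DMSO, and fell by 1.53 on the log2 scale (adjusted p = 4.22e-05). Its 5p arm had 41.6, 33.7 and 32.2 CPM in HGC-27-SAHA, against 60.9, 66.1 and 68.1 CPM in HGC-27-DMSO, and fell by 0.86 (adjusted p = 0.00323). Both falls were also called without HGC-27-SAHA 2, in which neither arm stood out.

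In AGS neither arm was called, with log2 fold changes of 0.18 for miR-1247-3p (adjusted p = 0.425) and 0.44 for miR-1247-5p (adjusted p = 0.104). The difference between the lines was called for both (1.71 ± 0.22, adjusted p = 0.00271, and 1.30 ± 0.25, adjusted p = 0.0263), and without HGC-27-SAHA 2 for miR-1247-3p (adjusted p = 0.0126) but not for miR-1247-5p (adjusted p = 0.0903). miR-1193 was listed in no library, and miR-2392 had at most 4 counts in any. Elsewhere in band 14q32, 0 of 4 tested microRNAs (miR-342-3p, miR-345-5p, miR-151b and miR-203a-3p) were called in HGC-27, with unadjusted p between 0.278 and 0.538. In AGS miR-151b was called higher (0.48, adjusted p = 0.0365) and miR-345-5p lower (-0.40, adjusted p = 0.0435).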

How the data were processed

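NEBNext reagents were used to build small RNA libraries from total RNA, per the labels' protocols, and cutadapt and Novoalign 2.07.11 were used, per the submitters' processing notes. No genome build or counting rule is given in the sources used here. What the authors deposited were whole-number counts per mature microRNA and hairpin (2909 entries, 2049 annotated, 860 predicted and left out), and a second table whose values are a score, counts scaled by the authors to a common total and rounded, with column sums of 983286 to 991838, used only in an alternative. The smallest listed count was 2 and blanks were read as 0. Where a name had several hairpins (111 names), the hairpin with the highest total stood for it. Near-identical relatives, such as miR-376a, miR-376b and miR-376c, may share reads.

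edgeR 4.0.16 (R 4.3.3) was run on 1 fit of all 12 libraries, and again without HGC-27-SAHA 2, with TMM, filterByExpr (608 and 644 names left), the quasi-likelihood test and Benjamini-Hochberg adjustment over all names tested. A name was called at an adjusted p under 0.05. SEs were taken from the F statistic and are approximate. Where a group listed nothing, folds are lower bounds against 3 counts per library. With 1 to 3 counts, exact 95% intervals of the count ratio are given. The code was tested on simulated data. Replicates were compared for duplicates and none were found. Alternatives used DESeq2 1.42.0 and limma 3.58.1 (pseudocount 1). Intervals cover counting error only, since the libraries have no molecular identifiers.

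The members, marker lists and tests were chosen with earlier results of these data known. Members named with values are the 8 most abundant tested, the 5 largest called changes in each direction of each comparison at 10 CPM or more, both arms of hairpins with both arms tested, and members called nowhere. Others named were chosen after their values were seen, among them the 7 calls in AGS. Sequences are from RefSeq, with 84 of 85 names matched.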

Additional observations from a re-analysis of the deposited data

Results flagged for a closer look

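The 12 members below were too low to be tested across the groups, but each had at least 20 counts in HGC-27-SAHA 2 and stood above every DMSO library there. Counts in HGC-27-SAHA 2 were 96 for miR-369-5p, 87 for miR-329-5p, 55 for miR-485-3p, 54 for miR-487b-3p, 41 for miR-380-3p, 40 for miR-376c-5p and 38 for miR-376b-5p. They were 31 for miR-154-5p, 23 for miR-431-5p, 23 for miR-668-3p, 22 for miR-379-3p and 22 for miR-485-5p. The next highest library held at most 14 counts of any of them, and it was AGS-SAHA 2 for 8 of the 12. miR-376b-5p, miR-376c-5p and miR-668-3p were listed in no other library. The DMSO libraries held at most 5 counts, for miR-379-3p. miR-376b-5p and miR-376c-5p share their seed, and reads of the miR-376 hairpins, which are near-identical, may be split between them.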

How the results depend on the processing

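No tested member changed direction where it was called. In HGC-27, 23 members called higher became 11 with the deposited normalized values in limma, 13 without HGC-27-SAHA 2 and AGS-SAHA 2 together (chosen after seeing the data), and 13 to 26 when each library was left out, where the filter also changed. In HGC-27 without HGC-27-SAHA 2, 13 became 20 with no filter and 5 to 10 on leaving out each library, where a lone SAHA library is assumed to vary like the other groups. In AGS, 7 became 11 with the replicate block and 2 to 6 on leaving out each library. For AGS against HGC-27 under DMSO, 2 became 1 with library totals in place of TMM, 1 with no filter, 1 with hairpins summed, 0 in limma, and 1 to 2 on leaving out each library. The difference between the lines, with 0 members lower, gave 1, miR-493-5p, with predicted entries included. Apart from the settings whose construction shows it (fewer libraries, another filter), the cause was not tested. DESeq2 called 18 higher in HGC-27, 13 without HGC-27-SAHA 2 and 7 in AGS, and with all libraries it gave no p for 6 members. Over single members and all other settings, 1999 values kept their side of the threshold, 117 lost a call and 28 gained one.

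Deviations from the group mean, in same-numbered SAHA and DMSO libraries, had correlations of -0.321, -0.008 and 0.075 in HGC-27. In AGS they were 0.002, 0.036 and -0.088. With 3 libraries per group these values cannot decide whether the numbers pair the libraries. Between the lines, HGC-27-SAHA and AGS-SAHA libraries of the same number had correlations of -0.091, 0.502 and 0.268, so those numbered 2 deviated together, and the cause was not tested. With the replicate block, 21 members were called higher in HGC-27, 14 without HGC-27-SAHA 2 and 11 in AGS.

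Depth is a limit here: most members lie under 10 CPM outside HGC-27-SAHA 2, and 60 of 85 were listed at all.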
